A study of Mus musculus with 2 samples.

Results

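Mbnl1, Mbnl2, Mbnl3, Celf1, Celf2, Rbfox1, Rbfox2, Rbm20, Rbm24 and Ptbp1 encode RNA-binding proteins that regulate alternative splicing in muscle. They were taken by a list of gene symbols, drawn up with earlier results of these data known, and are 10 of the 55536 genes and 131 of the 141767 transcripts in the tables. The tissue was gastrocnemius, a calf muscle, taken from B6CASTF1/J males (F1 hybrids of the B6 and CAST strains) at 2 months of age, and the assay was sequencing of total RNA. The series holds 1 group of 2 libraries, numbered replicate 1 and replicate 2, with no treatment, no second genotype and no other tissue. Both libraries started from 300 ng and carry ERCC spike-ins. The labels name a separate tissue sample for each library but 1 donor entry for both, and do not say whether the samples came from separate animals, so the spread between the libraries may be partly technical. With 1 group there is no comparison between conditions and no test: each value is given in both libraries, and SD is over n = 2.

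Splicing of a pre-mRNA can include or skip a cassette exon, an exon that some transcripts of a gene hold and others leave out. Proteins of the muscleblind (Mbnl), CELF, Rbfox, RBM and PTB families bind short sequence elements in or beside such exons and raise or lower their inclusion. In striated muscle, Mbnl proteins are known for driving the change from fetal to adult exon choices after birth, with CELF proteins acting against them on many of the same exons, and sequestration of Mbnl proteins by repeat RNA is a known mechanism of myotonic dystrophy. Several of these regulators also control exons in their own pre-mRNAs.

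Per gene, the levels below are TPM, a share of all transcripts in the library that is scaled per length and so can be compared between genes. They come from 2 kinds of table: the first tables give genes and transcripts with an error estimate, and the second give transcripts alone, summed here per gene. The first gene tables hold 42724520 expected counts in replicate 1 and 42280091 in replicate 2. The regulators took 62774 of them in replicate 1 and 57572 in replicate 2, or 0.147% and 0.136%. The labelled tissue was checked by marker sums: 5 muscle fibre genes summed to 66191 and 54336 TPM, 4 neuron genes to 0.06 and 0.02 TPM, and 4 heart genes to 0.23 and 0.19 TPM, with Nppa and Myl7 at 0. Fibroblast genes summed to 176 and 182 TPM, smooth muscle genes to 48.6 and 31.3, endothelial genes to 39.1 and 41.5, Schwann cell genes to 14.3 and 11.6, satellite cell genes to 10.6 and 9.39, and macrophage genes to 8.1 and 6.26. The 4 slow fibre genes summed to 736 and 1907 TPM, the largest ratio between the libraries among the sums above 1 TPM. In whole tissue, fewer cells of a type and less RNA per cell cannot be told apart.

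The summed level of the 10 regulators averaged 606 ± 44.8 TPM, with replicate 1 at 638 TPM and replicate 2 at 574 TPM. Mbnl1 alone gave 36 ± 0.556% of that sum, and 43.3 ± 0.487% of the sum in the second tables. The order from high to low was Mbnl1, Mbnl2, Rbfox1, Rbm24, Celf2, Rbm20, Celf1, Rbfox2, Ptbp1 and Mbnl3, and it was the same in both libraries. The ranges of neighbours in that order did not overlap, except those of Celf2 and Rbm20. In the second tables the ranges of Mbnl2 and Rbfox1 overlapped, with Rbfox1 the higher by mean. Celf1 stood above Rbm20 there with no overlap, at 39.9 and 37.3 TPM against 33.4 and 29.9, the reverse of the first tables.

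**Figure D1:**
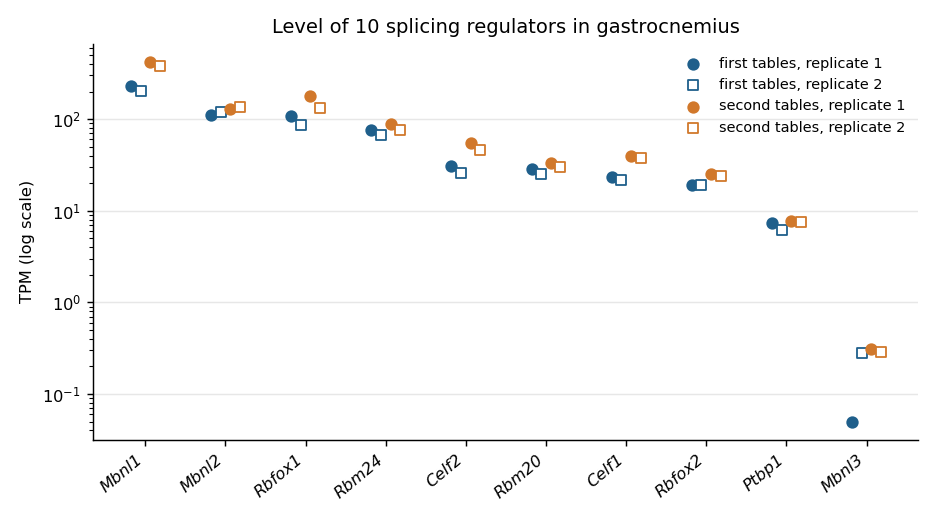
TPM of each regulator (log axis) in each library, first tables in blue and second tables in orange, filled circles for replicate 1 and open squares for replicate 2. In the first tables the levels run from 232 TPM for Mbnl1 to 0.05 TPM for Mbnl3, and the second tables give a higher mean for every gene, by 1.14 to 1.83 times.

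Mbnl1 (chr3:60472830-60629750, plus strand, mm10, 25 annotated transcripts) encodes the main muscleblind protein of adult muscle. Its level was 232 TPM in replicate 1 and 204 TPM in replicate 2, a mean of 218 ± 19.5 TPM, which placed it above 97.6% of the genes with a mean of at least 1 TPM. The second tables gave it 421 and 379 TPM, 1.83 times as much, although its counts there were only 1.08 times those of the first tables. The level of Mbnl1 therefore depended on the table far more than on the library. 2 uncharacterised genes on the same strand within its span, Gm37589 and Gm37488, had 3.66 and 3.39 TPM and 1.31 and 0.97 TPM.

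Mbnl2 (chr14:120275669-120431697, plus strand, 10 transcripts), the second muscleblind gene, had 111 TPM in replicate 1 and 118 TPM in replicate 2 (mean 114 ± 5.35). Its second-table levels were 128 and 134 TPM. Mbnl1 made up 65.5 ± 3.10% of the summed Mbnl level in the first tables and 75.3 ± 2.03% in the second. Mbnl3 (chrX:51117269-51206532, minus strand, 7 transcripts), the muscleblind gene known mainly from embryonic and regenerating tissue, was near the limit of detection. It had 0.05 and 0.28 TPM, from 7 and 10 counts, against the 3 counts that a count of 0 allows. The TPM of 0.05 lies below the interval of 0.0849 to 0.515 that was deposited beside it. The posterior mean TPM of Mbnl3, a separate deposited estimate, averaged 0.37 over the libraries. In the second tables Mbnl3 had 33.0 and 27.7 estimated counts, of which 84.0% and 66.0% were on its retained-intron transcript Mbnl3-206.

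Celf1 (chr2:90940382-91019497, plus strand, 14 transcripts) and Celf2 (chr2:6539694-7509563, minus strand, 28 transcripts) encode the CELF proteins. Celf1 had 23.3 and 21.8 TPM (mean 22.6 ± 1.06), and Celf2 had 31.1 and 25.9 TPM (mean 28.5 ± 3.69). Celf2 was thus the higher in both libraries, by 1.33 and 1.18 times. The Mbnl genes summed to 6.30 and 6.77 times the level of the 2 CELF genes, a ratio of 6.53 ± 0.334, and to 5.98 ± 0.256 times in the second tables.

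Rbfox1 (chr16:5885355-7411526, plus strand, 8 transcripts) and Rbfox2 (chr15:77078990-77307004, minus strand, 15 transcripts) encode proteins that bind the element UGCAUG. Rbfox1, the family member known from muscle, heart and neurons, had 109 TPM in replicate 1 and 86.6 TPM in replicate 2 (mean 97.7 ± 15.7). Rbfox2, which is widely expressed, had 18.9 and 19.0 TPM. Rbfox1 was 5.75 and 4.57 times as high as Rbfox2. The third family member, the neuronal Rbfox3, had 0.05 and 0.01 TPM.

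Rbm24 (chr13:46418434-46431095, plus strand, 5 transcripts), a muscle-specific regulator that favours inclusion of exons, had 77.0 and 66.9 TPM (mean 72.0 ± 7.11). Rbm20 (chr19:53677306-53867080, plus strand, 3 transcripts), known as a repressor of exons of titin, had 28.5 and 25 TPM (mean 26.7 ± 2.43). The ratio of Rbm24 to Rbm20 in TPM was 2.71 in replicate 1 and 2.68 in replicate 2. Expected counts did not show this steadiness, since the genes went in opposite directions there. Rbm24 had 6361 counts in replicate 1 and 5710 in replicate 2, and Rbm20 had 2842 and 2899. Ptbp1 (chr10:79854427-79864771, plus strand, 16 transcripts) encodes the polypyrimidine tract-binding protein, a repressor of many exons that is known to decline as muscle cells differentiate. It had 7.36 and 6.12 TPM (mean 6.74 ± 0.877), from 430 and 353 counts, the lowest level but that of Mbnl3.

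Short annotated fragments carried part of these levels. With transcripts under 1000 nt left out, a setting chosen after the data were seen, Rbm20 had a mean of 17.1 TPM in place of 26.7 and Ptbp1 had 4.02 in place of 6.74. Rbm20 then stood below Celf1, at 19.4 TPM. Mbnl1 kept 168 TPM and remained first.

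Replicate 2 was compared with replicate 1 on expected counts scaled by TMM, with 0.5 added to each count. The threshold was 1.5-fold, applied where both libraries together gave 200 counts or more. Of the 9 regulators that met this minimum (Mbnl3 did not), 0 were past 1.5-fold, beside 544 of all 10054 such genes, or 5.41%. With the threshold lowered to a 25% difference the regulators' count was still 0, beside 1760 genes, or 17.5%. The median absolute log2 ratio was 0.12 over the 9 regulators and 0.13 over all genes tested, so the regulators were about as close between the libraries as a typical gene. The 95% intervals quoted with these ratios are exact Clopper-Pearson intervals that cover counting error only.

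Rbfox1, Celf2 and Ptbp1 were lower in replicate 2, each at a log2 ratio of -0.24. For Rbfox1 the interval was -0.29 to -0.20, or 1.18 times higher in replicate 1, and for Ptbp1 it was wide, at -0.44 to -0.03. No order among these 3 is read. Mbnl1 and Rbm24 were nearer to even, both at -0.11, and Celf1 was at -0.08. On the other side, Rbfox2 was at 0.16 (0.07 to 0.25), Mbnl2 at 0.12 and Rbm20 at 0.08. For Rbm20 the direction differs between scales: its count ratio was slightly above even, while its TPM was lower in replicate 2. The short transcript Rbm20-202 had 11.7 TPM in replicate 1 and 7.63 in replicate 2. The slow fibre genes Myh7, Tnni1, Myl2 and Tnnt1 had log2 ratios of 1.34 to 1.51 between the same libraries, and the part of fibre makeup in the regulators' ratios was not tested.

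**Figure D2:**
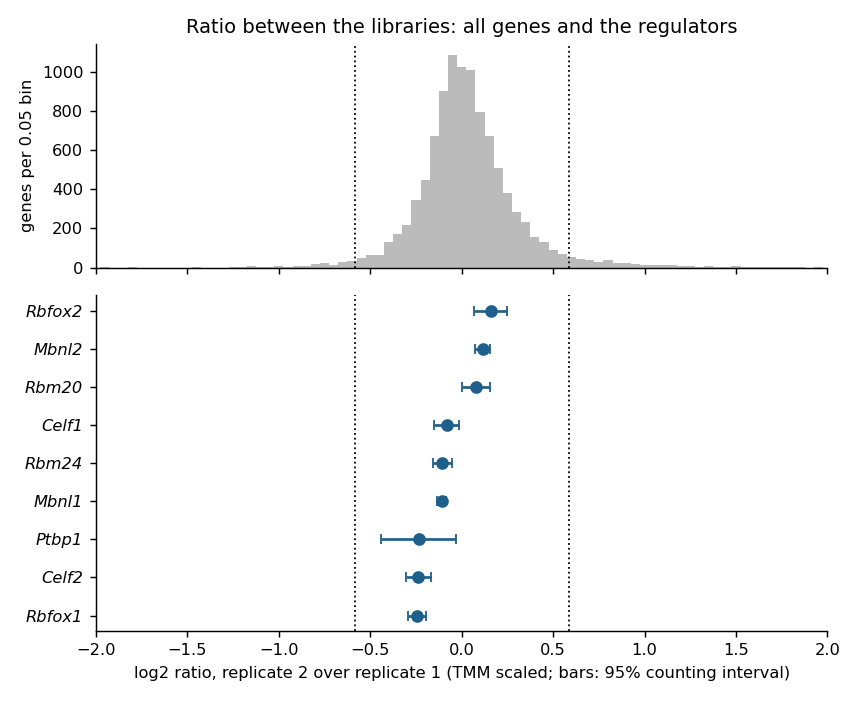
Log2 ratio of replicate 2 over replicate 1. Top, number of genes per bin of 0.05 for the 10054 genes tested, with the axis ending at -2 and 2; bottom, the 9 regulators with 95% counting intervals; dotted lines mark 1.5-fold. All 9 regulators lie between -0.24 and 0.16.

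Other splicing factors were read from a list of 77 genes, all found in the tables, of which 65 had a mean of at least 1 TPM. None stood above Mbnl1. The 5 highest were Fxr1 at 158 ± 14.9 TPM, Pcbp2 at 154 ± 4.73, Hnrnpa2b1 at 119 ± 7.16, Qk at 105 ± 18 and Ddx5 at 97.5 ± 8.82. Fxr1 encodes a muscle-enriched RNA-binding protein and Qk the quaking protein, another regulator of muscle exons, and both means lay between those of Mbnl1 and Rbfox1. The list median was 17.2 TPM, beside 27.6 TPM for the 10 regulators. Of 66 list genes with enough counts, 2 were past 1.5-fold, both higher in replicate 2. Khdrbs3, a STAR-family RNA-binding protein, had 5.88 and 16.1 TPM, a log2 ratio of 1.26 (1.06 to 1.47). Raver2, a co-regulator of PTB, had 0.61 and 1.52 TPM, a log2 ratio of 1.23 (0.86 to 1.63). The log2 ratio of Khdrbs3 lay just below those of the slow fibre genes; whether fibre makeup takes part in it was not tested.

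Most of the regulators' RNA was assigned to several transcripts per gene. A transcript's share is its percent of the gene's TPM. It is an estimate over whole annotated transcripts: short fragments weigh more in TPM than in counts. The transcript with the highest mean TPM was the same in the first and second tables for 6 of the 9 regulators with a mean of at least 1 TPM. Among all 9527 genes at that level with several transcripts it was the same for 7236, or 76%. By counts in place of TPM it was the same for 8 of the 9 regulators, beside 82.9% of those genes. The exceptions on TPM were Rbfox1, Rbfox2 and Rbm20, and below 1 TPM the leader of Mbnl3 differed too.

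**Figure D3:**
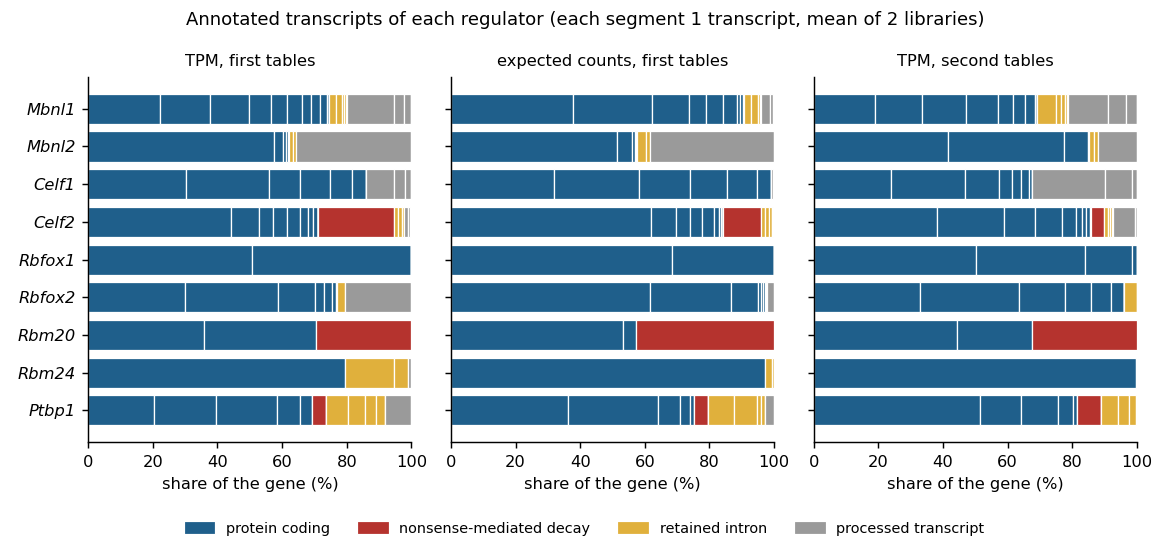
Share of each gene's TPM (left), expected counts (middle) and second-table TPM (right) by annotated transcript, mean of 2 libraries, 1 segment per transcript, coloured by annotated class; Mbnl3 is left out for its low level. Rbm24 and Rbfox1 rest on 1 or 2 main transcripts, whereas Mbnl1 and Ptbp1 are spread over many.

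The leading transcript of Mbnl1, the protein-coding Mbnl1-201 (5655 nt), had 21.1% and 23.1% of the gene's TPM in the first tables and 19.6% and 18.3% in the second. By expected counts its mean share was 37.7%. Mbnl1-214, at 15.5% and 16%, Mbnl1-221, at 11.6% and 12.3%, and Mbnl1-218, at 7.3% and 6.4%, followed among coding transcripts. The processed transcript Mbnl1-208, 732 nt long, took 14.3% and 14.4% of TPM but a mean of 2.8% of counts. Mbnl1-210 (576 nt), Mbnl1-206 and Mbnl1-202 were above 5% in the second tables alone, where Mbnl1-210 had 10.7% and 18.6% and so stood just above Mbnl1-201 in replicate 2.

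Mbnl2 had a different structure in the 2 kinds of table. Mbnl2-204 (2390 nt) had 58.7% and 56.6% of TPM in the first tables and 41.5% and 41.5% in the second. Mbnl2-201 (4552 nt) had 2.5% and 3.1% in the first tables but 38% and 34% in the second. The non-coding Mbnl2-205 (2881 nt) went the other way, with 34.8% and 36.1% against 9.5% and 14.2%. Within each kind of table the libraries were within 5 percentage points of each other for these transcripts, so the disagreement lay between the estimates and not between the libraries. Mbnl2-201 contains all 2390 nt of Mbnl2-204. A short coding fragment, Mbnl2-210, had 6.8% and 7.9% in the second tables. For Mbnl3, whose counts are few, Mbnl3-207, Mbnl3-202, Mbnl3-204, Mbnl3-201, Mbnl3-203 and Mbnl3-206 passed 5% in at least 1 kind of table, and no order among them is read.

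Celf1 was led by Celf1-201, at 30.5% and 29.98%, with Celf1-206 at 21.6% and 30.02%; these transcripts differ by 1 exon of 152 nt. Celf1-204, Celf1-202, Celf1-203 and the short Celf1-213 and Celf1-209 held the other shares above 5%. In replicate 2 of the second tables the 489-nt Celf1-209 stood just above Celf1-201, at 24.4% against 23.6%. Celf2 was led by Celf2-206 at 45.6% and 42.5%, followed by Celf2-228, which is annotated as a target of nonsense-mediated decay, the pathway that degrades mRNAs with premature stop codons. Celf2-228 had 22.4% and 24.8% in the first tables but 4.5% and 3.5% in the second. Celf2-205, Celf2-226, Celf2-210 and Celf2-209 were above 5% in at least 1 kind of table.

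Rbfox1 rested on 2 coding transcripts in the first tables. Rbfox1-203 had 52.4% and 49.2% of TPM, and Rbfox1-201 had 47.5% and 50.5%. The second tables gave 33.1% and 34% to Rbfox1-203, 48.4% and 52.4% to Rbfox1-201, and 15.8% and 13.3% to the short Rbfox1-206. Rbfox2 was shared between Rbfox2-203 (6573 nt), at 28.1% and 32%, and Rbfox2-207 (1041 nt), at 28.1% and 28.9%. By counts, where short transcripts weigh less, Rbfox2-207 had a mean of 8.5%. Rbfox2-204 had 11.3% and 11.8%, and the 417-nt Rbfox2-205 had 21% and 20.2% in the first tables and 0% in the second. Rbfox2-214 and Rbfox2-201 were above 5% in the second tables alone.

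Rbm24 was the simplest case. Rbm24-201 had 78.1% and 81% of TPM, a mean of 97.3% of counts, and 100% and 99.3% of TPM in the second tables. The 437-nt retained-intron Rbm24-205 made up 16.1% and 13.8% of first-table TPM and 0% of second-table TPM. Rbm20 split between the full-length coding Rbm20-203, at 32.1% and 37.5%, the decay-annotated Rbm20-201, at 26.7% and 32%, and the 465-nt fragment Rbm20-202, at 41.2% and 30.5%. By expected counts Rbm20-202 had a mean of 4.2% and Rbm20-201 had 41.9% and 43.4%. Ptbp1 was led by Ptbp1-202 in replicate 1, at 29.4%, and by Ptbp1-216 in replicate 2, at 24.6%; their deposited posterior standard deviations were 19.4% to 73.0% of their counts, so the order was not resolved at this depth. Its other shares above 5% in at least 1 kind of table were those of the short coding Ptbp1-209 and Ptbp1-215, the processed Ptbp1-203, the retained-intron Ptbp1-213 and Ptbp1-205, and the decay-annotated Ptbp1-201.

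Transcripts annotated as decay targets or as retaining an intron carried 8.16% and 7.23% of the regulators' summed TPM (mean 7.69 ± 0.66%). The second tables gave a mean of 6.32%, and expected counts gave 6.23%. Rbm20 had the largest share on decay-annotated RNA, 29.4 ± 3.77% in the first tables and 32.5 ± 3.46% in the second, all on Rbm20-201. Ptbp1 had 22.7 ± 0.127%, mostly on retained-intron transcripts, at 19.8% and 16.6%. Celf1 and Rbfox1 have no such transcript in the annotation, so no share can be given for them. Over the 6827 genes with such transcripts the median share was 9.02% of TPM, beside 19.5% over the 7 regulators that have them and meet the level of 1 TPM; in the second tables the order was the other way, 11% against 6.61%. By counts the medians were 4.54% over all such genes and 5.25% over the regulators in the first tables, and 5.28% and 5.74% in the second. The regulators' position beside other genes thus depended on the measure.

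Cassette exons were read as the percent of TPM on transcripts that hold the exon, out of those that hold it and those whose intron spans it. This inclusion is an estimate from whole transcripts and not from junction reads, and only annotated combinations can appear. The regulators have 46 such exons, of which 42 had at least 1 TPM. At inclusion between 10% and 90%, bounds set after the values were seen, there were 19 exons in the first tables, 22 in the second and 16 in both. In the first tables, the libraries were within 5 percentage points for 38 of the 42 exons, and the largest difference was 20.4 points. The kinds of table were within 10 points of each other for 33 of 42, and the largest difference was 54.4 points.

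**Figure D4:**
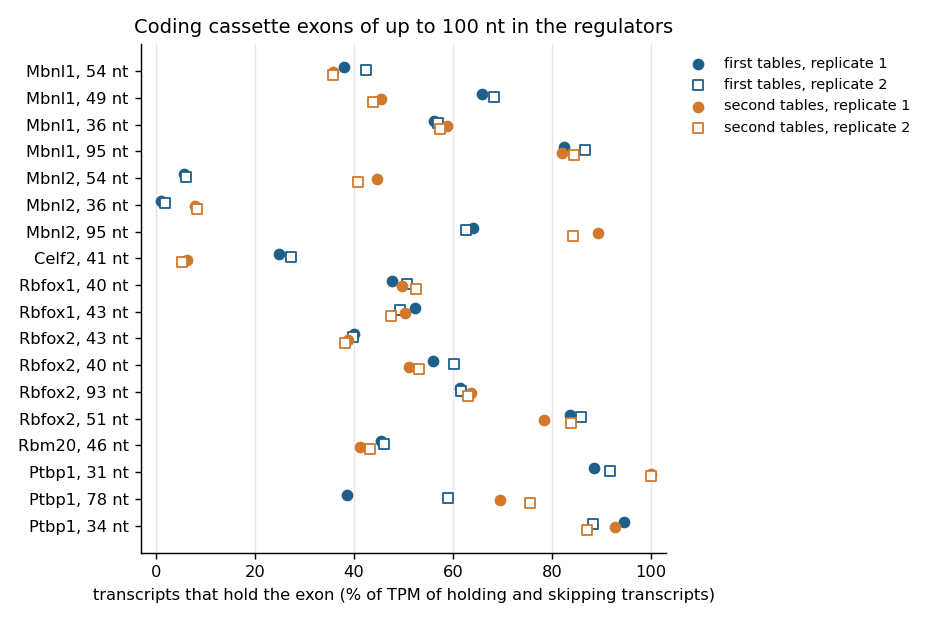
Inclusion of the coding cassette exons of up to 100 nt in the regulators, as percent of the TPM of holding and skipping transcripts, in each library and kind of table; exons near 0% or 100% in both kinds of table are left out. The 3 exons of Mbnl1 of 54, 36 and 95 nt have like values in both tables, while the 54-nt exon of Mbnl2 lies at 5.8% on average in the first and 42.7% in the second.

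Mbnl1 and Mbnl2 share 3 small coding cassette exons, shown here because inclusion was intermediate in Mbnl1 for all of them and because the same exons recur in the paralogue. Sequences are of the mm10 reference, from GENCODE M21 transcripts; alleles of the CAST parent were not read. Capitals mark the exon and lower case the 15 transcript bases on either side, 5′ to 3′.
Mbnl1 54 nt, chr3:60614683-60614736, plus strand: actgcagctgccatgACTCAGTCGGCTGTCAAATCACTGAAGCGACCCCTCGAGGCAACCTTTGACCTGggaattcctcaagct
Mbnl2 54 nt, chr14:120395712-120395765, plus strand: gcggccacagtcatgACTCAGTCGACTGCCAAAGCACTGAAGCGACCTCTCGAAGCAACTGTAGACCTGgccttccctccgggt
Mbnl1 36 nt, chr3:60621423-60621458, plus strand: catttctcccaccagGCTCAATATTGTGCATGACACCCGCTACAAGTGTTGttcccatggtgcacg
Mbnl2 36 nt, chr14:120403336-120403371, plus strand: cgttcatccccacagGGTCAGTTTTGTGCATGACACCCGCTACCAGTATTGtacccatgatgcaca
Mbnl1 95 nt, chr3:60622146-60622240, plus strand: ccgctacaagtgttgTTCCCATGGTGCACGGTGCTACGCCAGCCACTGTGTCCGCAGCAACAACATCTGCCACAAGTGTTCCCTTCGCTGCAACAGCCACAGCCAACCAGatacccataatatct
Mbnl2 95 nt, chr14:120404638-120404732, plus strand: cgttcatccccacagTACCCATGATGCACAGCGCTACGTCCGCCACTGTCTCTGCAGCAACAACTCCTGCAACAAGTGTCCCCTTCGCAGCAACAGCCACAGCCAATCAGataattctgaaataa

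The exons of 54 nt are identical at 46 of 54 positions (85.2%), those of 36 nt at 31 of 36 (86.1%) and those of 95 nt at 81 of 95 (85.3%). Counted from the 5′ end of the exon, with the base of Mbnl1 first, the 36-nt exons differ at C2G, A6G, A8T, A29C and G33A. The 54-nt and 36-nt exons are multiples of 3 and keep the reading frame, while the 95-nt exon does not.

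The 54-nt exon of Mbnl1, whose product is known to favour a nuclear location of the protein and which Mbnl proteins themselves repress, was held by 37.9% of TPM in replicate 1 and 42.4% in replicate 2. The second tables gave 35.7% and 35.8%. This is 1 of the better resolved exons: the leading transcript that holds it, Mbnl1-214, has no bases beyond the exon that the leading skipping transcript, Mbnl1-201, lacks. The skipping transcript does have 558 bases of its own. The 36-nt exon of Mbnl1, at 56.1% and 57% and in the second tables at 58.9% and 57.4%, was held at slightly over the level at which it was skipped. The 95-nt exon was mostly held, at 82.5% and 86.6%, and at 82.0% and 84.4% in the second tables. An exon of 49 nt, the 3′ part of a longer exon of 154 nt, had 67.1 ± 1.69% in the first tables, 44.7 ± 1.24% in the second and 85.3% and 88% by expected counts. Transcripts with the 154-nt form enter neither side of that percent, so it is not the share of the 49-nt form at this site. The transcripts that do enter had a mean of 22.4 TPM in the first tables. For the 154-nt exon that base was 122 TPM, of which a mean of 94.0% held it.

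In Mbnl2 the corresponding 54-nt exon had 5.6% and 5.9% in the first tables but 44.6% and 40.9% in the second. The holding transcript Mbnl2-201 has 2108 bases beyond the exon that Mbnl2-204 lacks. The inclusion of this exon in these libraries thus depends on which estimate is read. The 36-nt exon had 1.0% and 1.7% in the first tables and 7.9% and 8.3% in the second, below that of Mbnl1 in both. The 95-nt exon had 64.1% and 62.6%, and 89.4% and 84.2% in the second. The only annotated transcript that skips it is the non-coding Mbnl2-205. Among protein-coding transcripts alone it was at 100% in both libraries, a value fixed by the annotation.

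In Rbfox1 and Rbfox2 a 40-nt and a 43-nt exon follow the same upstream sequence and lead into the same downstream sequence, and are known as alternatives used in brain (40 nt) and muscle (43 nt). They are shown because each gene divided its TPM between them.
Rbfox1 40 nt, chr16:7363865-7363904, plus strand: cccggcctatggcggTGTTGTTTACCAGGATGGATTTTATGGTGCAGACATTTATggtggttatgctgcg
Rbfox1 43 nt, chr16:7369801-7369843, plus strand: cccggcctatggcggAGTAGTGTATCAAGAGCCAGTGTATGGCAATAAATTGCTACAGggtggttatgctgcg
Rbfox2 40 nt, chr15:77094451-77094490, minus strand: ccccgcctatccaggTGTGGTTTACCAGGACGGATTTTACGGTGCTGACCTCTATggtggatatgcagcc
Rbfox2 43 nt, chr15:77091812-77091854, minus strand: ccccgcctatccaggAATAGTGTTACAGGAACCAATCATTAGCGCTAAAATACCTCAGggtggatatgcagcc

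Between the paralogues the 40-nt exons are identical at 34 of 40 positions (85%) and the 43-nt exons at 27 of 43 (62.8%). In Rbfox1 the 43-nt exon had 52.4% of TPM in replicate 1 and 49.2% in replicate 2, and the 40-nt exon had 47.6% and 50.8%. The second tables gave 50.2% and 47.4% to the 43-nt exon. By expected counts the 43-nt exon had 32.7% and 30.05%, so TPM puts these exons near an even split and counts do not. The 40-nt exon stands on Rbfox1-201, which has 1897 bases beyond it that Rbfox1-203 lacks, and Rbfox1-203 has 240 such bases beyond the 43-nt exon. The neuron markers Rbfox3, Elavl3, Snap25 and Syt1 together were at 0.06 and 0.02 TPM. In Rbfox2 the 43-nt exon had 39.97% and 39.7%, and the 40-nt exon had 56% and 60.3%. The second tables gave the 43-nt exon 38.7% and 38.1% and the 40-nt exon 51% and 53.2%. Rbfox2 counts gave 9.1% and 8.6% to the 43-nt exon, which is held by the 1041-nt Rbfox2-207. The 40-nt exon of Rbfox2 had 89.1% and 91.4% by counts. A 93-nt exon of Rbfox2, within the RNA-binding region, had 61.4% and 61.6%, and 63.3 ± 0.464% in the second tables, but 90.9% and 91.4% by expected counts. For all 3 exons of Rbfox2 the short Rbfox2-207 weighs more in TPM than in counts.

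3 further exons tie a regulator to transcripts annotated for decay. Those of Rbm20 and Celf2 are held by the decay-annotated transcript, and that of Ptbp1 is skipped in it.
Rbm20 46 nt, chr19:53852354-53852399, plus strand: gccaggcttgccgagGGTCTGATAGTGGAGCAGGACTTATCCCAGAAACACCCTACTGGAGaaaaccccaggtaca
Celf2 41 nt, chr2:6554280-6554320, minus strand: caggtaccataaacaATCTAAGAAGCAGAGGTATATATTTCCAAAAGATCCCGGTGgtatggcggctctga
Ptbp1 34 nt, chr10:79862014-79862047, plus strand: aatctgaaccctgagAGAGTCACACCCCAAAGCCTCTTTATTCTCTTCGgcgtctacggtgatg

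None of these lengths is a multiple of 3. The 46-nt exon of Rbm20 had 45.4% and 46.1% in the first tables, 41.3% and 43.3% in the second, and 44.2% and 44.9% by expected counts. All 6 values lie between 41.3% and 46.1%. The holding transcript Rbm20-201 and the skipping transcript Rbm20-203 also differ outside it, by 1713 and 1988 bases of their own. The 41-nt exon of Celf2 had 24.7% and 27.2% in the first tables, 6.3% and 5.3% in the second, and 11.6% and 13.0% by expected counts. The 34-nt exon of Ptbp1, whose skipping is the known route by which PTB limits its own level, was held by 94.6% and 88.3% in the first tables and 92.8% and 87.1% in the second. The 78-nt exon of Ptbp1 had 38.5% in replicate 1 and 59.0% in replicate 2, the largest difference between the libraries of the 42 exons, and 69.4% and 75.6% in the second tables. Its leading holding and skipping transcripts are Ptbp1-216 and Ptbp1-202, whose order was not resolved at this depth. The transcripts that enter had only 3.87 and 3.24 TPM in the first tables. A 196-nt exon of Ptbp1 had the largest difference between the tables, at 45.6 ± 4.62% and 100%, on few counts.

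Exons known as targets of these regulators were read the same way in other genes, by gene and exon length. 11 exons matched, 7 of them at 90% or more and 4 under 20%, and for all 11 the kinds of table were within 10 percentage points. A match by length need not be the known target, as for Clcn1 below. The 42-nt exon of Atp2a1, the calcium pump of fast muscle, was held by 99.9% and 99.8%; holding it is known as the adult form. The 57-nt exon of Cacna1s, the calcium channel of excitation-contraction coupling, had 99.8% and 98.6%. The 18-nt and 15-nt exons of Ryr1, the calcium release channel, had 99.4% and 99.1%, and 99.6% and 99.8%. The 39-nt exon of Dmd, which encodes dystrophin, had 100% in both libraries, and its 32-nt exon had 100% and 98.1%.

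Clcn1, the chloride channel of muscle, has 2 cassette exons of 79 nt. Both matched the length sought, so length does not tell which of them is the known target. The one at chr6:42293444-42293522 was held by 2.6% and 4.1%, and by 9.2% and 10.4% in the second tables, while the one at chr6:42294078-42294156 was held by 100% in both libraries. The 24-nt exon of Mef2c had 3.1% and 2.6%, and the 21-nt exon of Mef2d had 15.5% and 14.3%, or 7.6% and 7.0% by expected counts; both genes encode muscle transcription factors. The 36-nt exon of Insr, the insulin receptor, had 12.1% and 19.2% of TPM but 0.8% and 1.4% of expected counts; its holding transcript, Insr-203, is a short fragment. The exon lengths sought in Bin1 (45 nt) and, among the regulators, in Rbfox1 (53 and 30 nt) matched no cassette exon of the annotation.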

How the data were processed

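Total RNA-seq of 2 gastrocnemius libraries was read from 3 tables per library. Per the file headers, the first gene and transcript tables hold expected counts, TPM, posterior mean TPM, and posterior standard deviations and interval bounds (read here as scores) that the authors deposited; the second transcript tables hold estimated counts and TPM. The deposited notes name mm10 and GENCODE M21; for the quantification programs, the sources used here give no names. TPM shares its total over all transcripts, so levels move with what else is counted; 86 scaffold genes absent from the second tables were set to 0 there.

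Expected counts were rounded, scaled by TMM (edgeR 4.0.16, R 4.3.3) and compared as ratios with 0.5 added, a minimum summed count of 200 and a threshold of 1.5-fold; the code was tested on simulated data. Alternatives used DESeq2 1.42.0 size factors, total and ERCC counts, other filters and folds, and each library alone. Exons, transcript classes and sequences came from GENCODE M21 with Python 3.11.15 and pandas 2.3.3. Named were all 10 regulators, transcripts with 5% of a gene's TPM in either kind of table, the 5 highest and all past-threshold genes of the splicing list, and every target exon found. The regulators, lists and exons were chosen with earlier results of these data known. Entries without a gene ID (26248 of them listed by a number alone, and the spike-ins) held 0.468% and 0.442% of counts and stayed out of the gene counts and ratios. With 1 group of 2 libraries no test was run.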

Additional observations from a re-analysis of the deposited data

How the results depend on the processing

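No paired analysis was possible because there is 1 group. The summed level of the regulators, 606 TPM, was 923 in the second tables, 1296 with TPM rescaled over protein-coding genes alone and 518 with transcripts under 1000 nt left out, and 574 to 638 with each library left out. The count of regulators past 1.5-fold was 0 under every other scaling, kind of table, filter, pseudocount and fold that was run. Of all genes, 544 became 1864 with a minimum count of 20, 8147 with no filter, 153 at 2-fold and 1760 at a 25% difference. The splicing list's 2 became 9 with no filter and 6 at a 25% difference. The decay and retained-intron share of 7.69% was 6.32% in the second tables and 6.23% by counts (7.23% to 8.16% leaving out each library). Exons at intermediate inclusion numbered 12 in place of 19 with protein-coding transcripts alone, 14 by expected counts and 19 to 20 leaving out each library. Protein-coding transcripts alone put an exon at 0% where all that hold it are of other classes, as for the 46-nt exon of Rbm20. They put it at 100% where all that skip it are, as for the 95-nt exon of Mbnl2. Every exon that left the range of 10% to 90% under this setting was at exactly 0% or 100%, and none entered it. Of 53 exons with at least 1 TPM, 11 of them in target genes, 34 moved by more than the spread between libraries in the second tables. The search for TGCATG in introns was not run, with 200-base or 100-base windows, since no genome of the build was used. Depth limits Mbnl3 and the transcripts of Ptbp1.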

Other observations

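Ptbp2, the paralogue of Ptbp1 known from neurons, was singled out after its values were seen. It had 9.33 and 7.18 TPM, above Ptbp1 in each library at 7.36 and 6.12 TPM, though the ranges overlapped. The second tables gave Ptbp2 22.4 and 10.9 TPM against 7.81 and 7.53 for Ptbp1. The neuron markers were at 0.06 and 0.02 TPM in sum. Of the other families, the neuronal Celf3, Celf4 and Rbfox3 had no more than 0.05 TPM in any library of the first tables.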
